A study of Bos taurus with 6 samples.

Results

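The S100 genes encode small calcium-binding proteins, and 10 of them were chosen by symbol for description: S100A2, S100A4, S100A6, S100A8, S100A9, S100A10, S100A11, S100A12, S100A14 and S100A16. Of these, 9 were on a row of the count table, out of 28200 rows in all. No row used here carried the symbol S100A6, and S100A6 was not analysed here. Of the 9, 8 had at least 1 read and 6 passed the filter on low counts and were tested.

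The cells were primary mammary epithelial cells of Holstein cattle, freed from mammary tissue with enzymes. One group was wild type and the other carried a KLF6 gene, for a zinc-finger transcription factor, disrupted by CRISPR/Cas9, with 3 libraries per group and no other treatment named. Nothing in the labels tells if the 3 libraries of a genotype are separate cultures or if the edited cells were 1 clone, and they name no guide. All p-values below hence rest on the spread between libraries alone, part or all of which may be technical. The comparison addresses transcript levels in edited against wild-type cells. An effect of losing KLF6 and any other difference between these cells cannot be told apart.

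S100 proteins fold around a pair of EF-hand calcium-binding loops and mostly work as dimers. Calcium opens a surface on the dimer that grips partner proteins such as annexins and myosin heavy chains. Several are also released from cells and act as alarm signals on receptors such as RAGE and TLR4. In skin, gut and mammary gland the members are spread over different cells. S100A2 and S100A14 are epithelial, S100A10, S100A11 and S100A16 are broadly expressed, and S100A4 is best known from motile and mesenchymal cells. S100A8, S100A9 and S100A12 are abundant in neutrophils and in inflamed epithelium. Most S100 genes lie side by side in the epidermal differentiation complex, the stretch of chromosome that also holds genes of the cornified layer.

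Library totals lay between 17512892 and 18724879 counts. The labels call the knockout complete, and KLF6 reads remained at a lower level: KLF6 fell from 519 ± 34.0 CPM in wild type to 224 ± 6.48 CPM in knockout libraries (mean ± SD, n = 3 each; CPM is counts per 1000000 of the TMM-scaled library size), a log2 fold change of -1.21 ± 0.05 (SE; edgeR adjusted p = 2.25e-13). The epithelial keratin gene KRT8 was read at 7564 ± 527 CPM in wild type and 2450 ± 62.2 CPM in knockout, and EPCAM at 165 ± 10.6 and 167 ± 5.35 CPM. All 9 mammary epithelial markers had reads, with a summed level of 15993 to 17279 CPM in wild-type and 6502 to 6703 CPM in knockout libraries. Keratin genes made up most of that sum in both genotypes, so it does not describe the list as a whole. The keratin gene KRT14 rose by 0.76 on the log2 scale. The part of these markers in the S100 values was not tested. Wild-type replicate 3 stood apart from the other wild-type libraries, since its counts differed from theirs with 9.57 and 9.75 times the variance that counting alone gives, against 2.32 to 3.06 for each remaining pair of the same genotype. Several members differ most in that library, and their fold changes are therefore given with and without it. Levels per length are given only with it.

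Knockout libraries had fewer S100 reads. The 9 members together took 0.948%, 0.889% and 0.917% of all counts in wild-type replicates 1 to 3, and 0.460%, 0.457% and 0.452% in the knockout libraries. The groups did not overlap, and the wild-type mean was 2.01 times the knockout mean (exact two-sided permutation test p = 0.10, the smallest that 3 against 3 libraries can give). In these bulk libraries, fewer cells of a type and less RNA per cell cannot be told apart. Of the 6 tested members, 5 fell and none rose (edgeR quasi-likelihood test, Benjamini-Hochberg adjusted over all genes tested, threshold 0.05). These were S100A4, S100A14, S100A10, S100A11 and S100A16. Across the 13390 genes tested, 74.6% changed, 37.6% downwards and 37.1% upwards, so a change as such was common. A fall of at least 2-fold was seen for 2 of the 6, S100A4 and S100A14, against 11.5% of all genes tested. All 3 knockout libraries lay below all 3 wild-type libraries for each of the 6, and for 38.3% of all genes tested. The median log2 fold change was -0.84 over the 6 and -0.01 over all genes tested. Each of the 6 was read at 63.4 CPM or more in every library; the other 3 members with a row had almost no reads, so these counts do not speak for them.

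**Figure D1:**
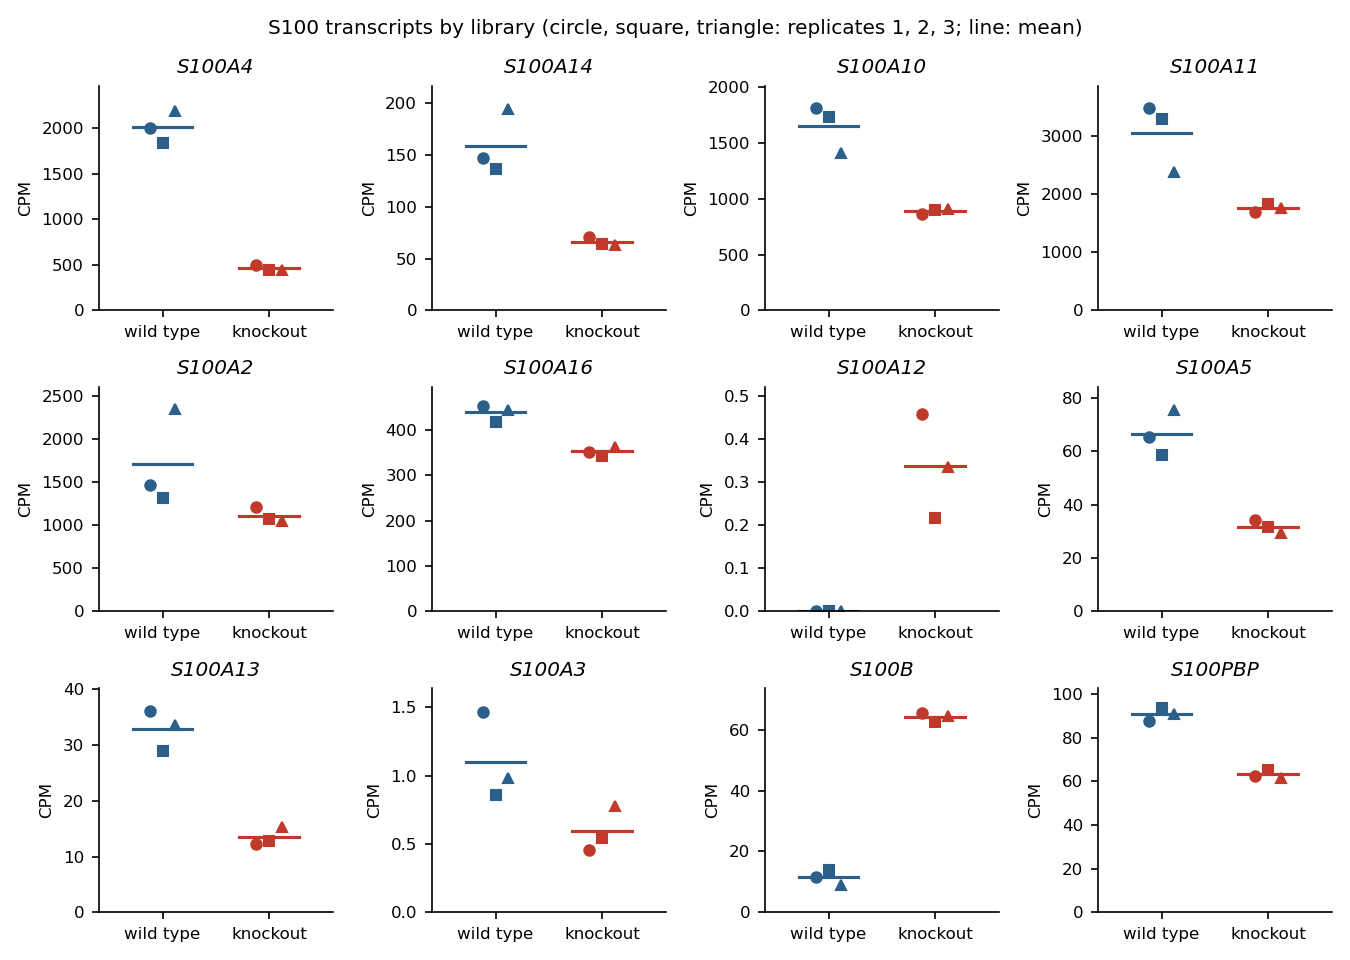
Level of 12 S100-related genes in CPM (linear axes from 0, different in each panel) by genotype, with 1 symbol per library and a line at the group mean. S100A4 shows the widest gap between genotypes among the 6 tested members, wild-type replicate 3 (triangle) is highest for S100A2 and S100A14 and lowest for S100A10 and S100A11, and S100B alone of the panels with more than 1 CPM is higher in knockout libraries.

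S100A4, which binds the heavy chain of non-muscle myosin and is linked to cell motility, had the largest fall of the members (chromosome 3, 16824126 to 16826559, plus strand; coordinates here and below are those of the count table, whose genome build no source used here gives). Wild-type libraries held 2004, 1834 and 2195 CPM and knockout libraries 497, 444 and 444 CPM. The lowest wild-type library was far above the highest knockout library. The fall was 4.36-fold, a log2 fold change of -2.12 ± 0.06 (edgeR adjusted p = 5.70e-13), and it lay between -2.18 and -2.05 with any 1 library left out.

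S100A14, an epithelial S100 protein that binds calcium weakly, fell 2.41-fold (chromosome 3, 16766542 to 16768597). Its wild-type levels were 147, 136 and 194 CPM and its knockout levels 70.6, 63.8 and 63.4 CPM. The groups were far apart, with replicate 3 the highest of the wild-type libraries. The log2 fold change was -1.27 ± 0.15 (edgeR adjusted p = 4.71e-04), and -1.10 without wild-type replicate 3. Its neighbour S100A16, a widely expressed member (16769716 to 16776627), changed least. It was read at 452, 418 and 444 CPM in wild type and 352, 343 and 362 CPM in knockout libraries, and the log2 fold change was -0.31 ± 0.04 (edgeR adjusted p = 4.94e-06). The median over the 739 tested genes of chromosome 3 was itself -0.39, and with that median taken out S100A16 stood at 0.08 and so no longer on the lower side. The locus listed as S100A13 overlaps both of these genes on the same strand, and no source used here tells how the authors' counting assigned shared reads.

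S100A10, also called p11, has lost the ability to bind calcium and pairs with annexin A2 at the cell membrane, where the complex holds plasminogen. Its levels were 1811, 1731 and 1408 CPM in wild type against 861, 901 and 909 CPM in knockout libraries (chromosome 3, 18762472 to 18773422). Replicate 3 was the lowest of the wild-type libraries and still above every knockout library. The fall was 1.85-fold (log2 -0.89 ± 0.08, edgeR adjusted p = 1.04e-05), and the log2 fold change was -0.99 without that library (edgeR adjusted p = 9.36e-24). S100A11, a partner of annexin A1 that is known from keratinocytes (18727498 to 18733580), was the member with the most reads. It stood at 3484, 3295 and 2389 CPM in wild type and 1691, 1828 and 1769 CPM in knockout libraries. As for S100A10, replicate 3 was the lowest wild-type library. The fall was 1.73-fold (log2 -0.79 ± 0.16, edgeR adjusted p = 0.00887), and without wild-type replicate 3 the log2 fold change was -0.94 (adjusted p = 4.59e-23).

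S100A2, a nuclear S100 protein of basal epithelial cells and a known target of p63, did not pass the test (chromosome 3, 16805481 to 16811823). It was read at 1472, 1320 and 2352 CPM in wild type and at 1212, 1074 and 1051 CPM in knockout libraries. The groups did not overlap, but the wild-type coefficient of variation was 32.5%, against a median of 4.56% over the 3292 genes with at least 50 CPM in both genotypes. The log2 fold change was -0.62 ± 0.26 (edgeR adjusted p = 0.0935). Without wild-type replicate 3 it was -0.33, with an adjusted p = 0.0112, so that the smaller difference passed. DESeq2 on all libraries gave -0.61 with an adjusted p = 0.0479, and the authors' deposited table lists -0.61 with an adjusted p of 0.0481. These nearly equal values come from the same libraries and do not count as separate results. With 1 of the other libraries left out, the edgeR adjusted p lay between 0.0640 and 0.217.

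The neutrophil-type members were almost unread. S100A8, which pairs with S100A9 in the antimicrobial complex calprotectin, had 0 reads in all 6 libraries, where 3 counts would equal 0.161 to 0.172 CPM (chromosome 3, 17085577 to 17086827). S100A9 had 1 read, in knockout replicate 1 (17115128 to 17117984). S100A12, a ligand of the receptor RAGE, had 8, 4 and 6 reads in knockout libraries and 0 in wild type (17102722 to 17104173). That is 6.10-fold higher in knockout libraries when 3 counts stand in for the 0 of the wild-type group. The counting error of the knockout reads is not included in that value. S100A12 was below the filter of the edgeR test. With no filter on low counts it passed (adjusted p = 3.30e-04), it passed by DESeq2 (adjusted p = 0.00269), and the authors' deposited table lists it with an adjusted p of 0.00270. The DESeq2 and deposited values come from the same libraries and are nearly equal, so they do not count as separate results. Of 14 myeloid and lymphoid markers, 5 were at 0 in every library, namely PTPRC, ITGB2, CSF3R, LYZ and MPO. The summed level of this list was 5.68 to 6.80 CPM in knockout and 8.95 to 11.2 CPM in wild-type libraries. The gap in that sum came mostly from CD74, whose mean CPM was 4.15 (wild type) and 0.129 (knockout). The sum hence does not describe the list as a whole. Of the 4 tested, CD74 and FCER1G fell, CSF1R rose and CD68 did not pass (-0.33, edgeR adjusted p = 0.0904).

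The order of the members also differed between genotypes when levels were set per length, as CPM per kb of the gene length in the count table. In wild type S100A4 was highest, at 3208 ± 288, followed by S100A10 at 2661 ± 344, S100A2 at 2537 ± 824 and S100A11 at 2257 ± 432. The libraries of S100A2 overlapped those of the other three, so its place is not fixed by these data, and S100A10 and S100A11 overlapped each other. In knockout libraries S100A2 came first with 1646 ± 128, then S100A10 with 1437 ± 41.5, S100A11 with 1302 ± 51.0 and S100A4 with 736 ± 49.5, and no neighbours in that order overlapped. S100A16 (289 ± 11.5 in wild type, 233 ± 6.33 in knockout) and S100A14 (155 ± 29.7 and 64.3 ± 3.94) followed in both genotypes. Among all 28200 rows ranked by this level, S100A4 went from rank 6 in wild type to rank 118 in knockout libraries, S100A10 from 12 to 45, S100A2 from 14 to 36 and S100A11 from 21 to 58. As a share of the members' summed level per length, S100A4 made up 28.8% ± 1.41 in wild type and 13.6% ± 0.676 in knockout libraries, while S100A16 made up 2.61% ± 0.0496 and 4.30% ± 0.160.

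**Figure D2:**
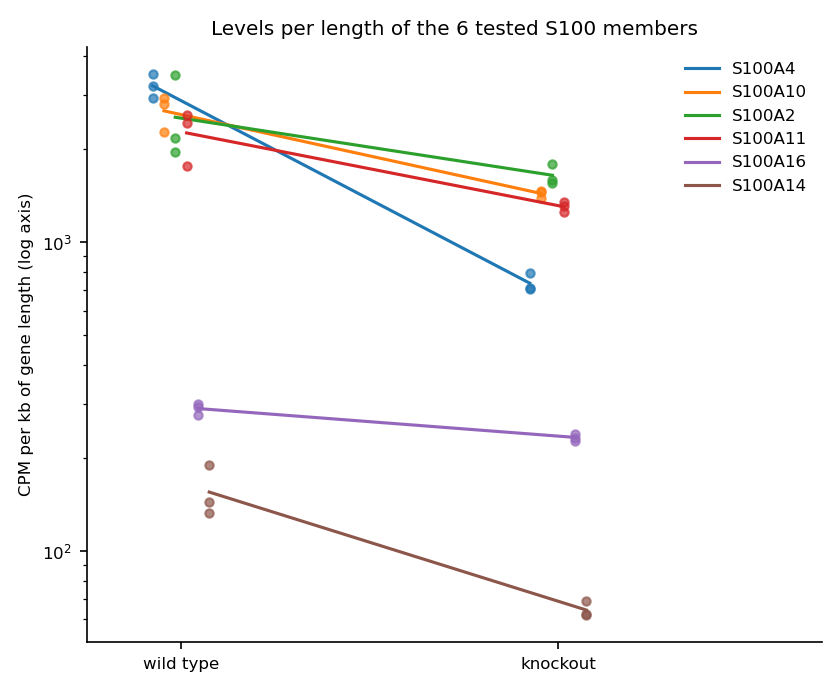
CPM per kb of gene length (log axis) of the 6 tested S100 members in wild-type and knockout libraries, with 1 point per library and lines joining the group means. S100A4 crosses the lines of S100A10, S100A2 and S100A11, from the highest mean in wild type to the fourth in knockout.

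Within wild type the members did not move together. Replicate 3 differed from the mean of replicates 1 and 2 by 0.75 on the log2 scale for S100A2, 0.45 for S100A14 and 0.19 for S100A4. The difference was -0.50 for S100A11, -0.33 for S100A10 and 0.03 for S100A16. So S100A2 and S100A14 were high, and S100A10 and S100A11 low, in the same library. Over the 3944 genes with a wild-type mean of at least 50 CPM the median of this difference was -0.01 and its median size 0.09. The size for S100A2 exceeded that of 99.9% of those genes, S100A11 that of 99.4%, S100A14 that of 99.1% and S100A10 that of 97.4%. Knockout libraries were tighter, with coefficients of variation from 2.72% (S100A16) to 7.80% (S100A2) over the 6 tested members. The same held over the 3292 genes with at least 50 CPM in both genotypes. Their median was 2.89% in knockout and 4.56% in wild type. What set wild-type replicate 3 apart was not tested.

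**Figure D3:**
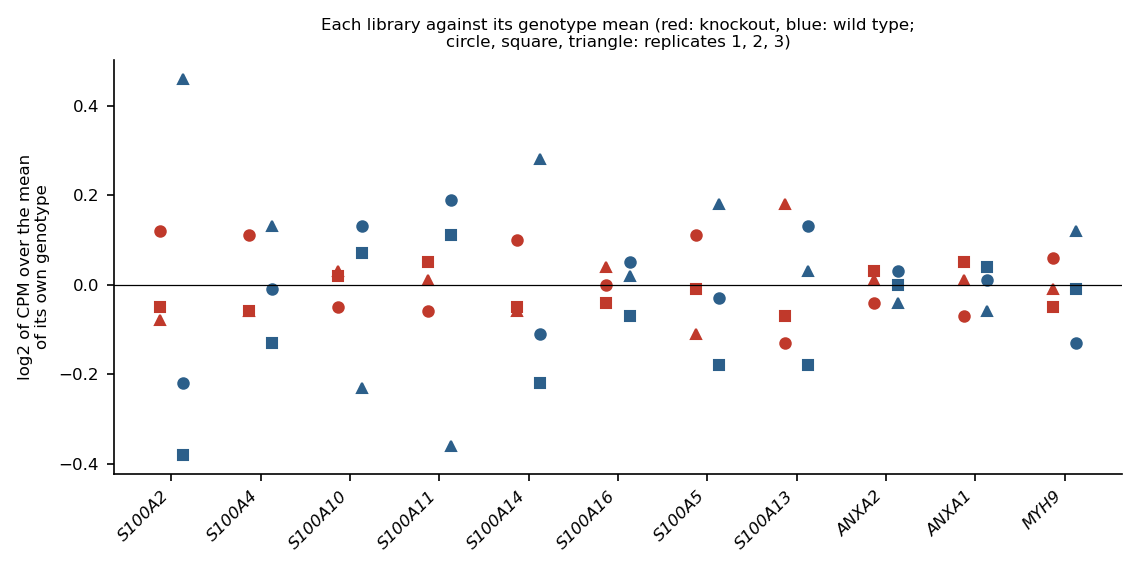
Log2 of each library's CPM over the mean of its own genotype, for the 6 tested S100 members, S100A5, S100A13 and 3 partner genes (red for knockout, blue for wild type; circle, square and triangle for replicates 1, 2 and 3). Wild-type replicate 3 lies at 0.46 for S100A2 and 0.28 for S100A14 but at -0.36 for S100A11 and -0.23 for S100A10, while ANXA2 and ANXA1 stay within 0.07 of 0 in all libraries.

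Among the S100 genes outside the member list, S100B stood out by direction. S100B, best known from glia and melanocytes, was read at 65.4, 62.6 and 64.4 CPM in knockout libraries and at 11.6, 13.9 and 9.12 CPM in wild type. This gene lies on chromosome 1 (146272607 to 146280008), away from the cluster, and rose by 2.47 ± 0.10 on the log2 scale (edgeR adjusted p = 1.79e-12). S100A13, which takes part in the release of FGF1, fell by 1.29 ± 0.10 on the log2 scale, from 32.8 ± 3.57 to 13.4 ± 1.54 CPM. S100A5, a calcium, zinc and copper binding member, fell by 1.07 ± 0.09, from 66.6 ± 8.43 to 31.8 ± 2.42 CPM. S100PBP, which is no S100 protein but a binding partner of S100P, fell by 0.52 ± 0.05. S100A3, known from the hair cuticle, had 32 reads in knockout and 60 in wild-type libraries (-0.88 ± 0.36, edgeR adjusted p = 0.0355). Its call was lost by DESeq2 (adjusted p = 0.149), without knockout replicate 1 (0.127), without knockout replicate 2 (0.0973) and without wild-type replicate 1 (0.179). S100A1 had 5 reads in knockout and 18 in wild type, S100Z had 3 reads in wild-type replicate 3 alone, and S100A7 and S100G had 0 in every library.

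All 9 members with a row lie on chromosome 3, over 2007 kb from S100A14 to S100A10, as does the rest of the cluster. With a flank of 500 kb on each side, this stretch holds 100 rows, of which 44 were tested. Of the 9 tested S100 genes there, 8 fell and 0 rose, with a median of -0.89. Of the 35 other tested rows, 24 fell and 9 rose, with a median of -0.52. Falls were also more common on chromosome 3 as a whole (61.3% of 739 tested genes) than over all genes (37.6%). With the chromosome median taken out, S100A4 remained at -1.73, S100A14 at -0.88, S100A10 at -0.50 and S100A11 at -0.40. By the same step S100A2, which was not called, stood at -0.23 and S100A16 at 0.08.

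Between the S100 genes near S100A14 and the pair S100A11 and S100A10 lie genes of the cornified layer. Of the 8 tested rows other than S100 genes between the outermost members, 5 fell and 3 rose, with a median of -1.18. Over all genes tested, 37.6% fell and 37.1% rose. The 8 rows ranged from -5.79 to 2.54, and the 9 tested S100 genes of the stretch from -2.12 to -0.31. The row described as trichohyalin, a protein of the hair root sheath and of cornified epithelium (ENSBTAG00000053103), went from 284 ± 18.6 CPM in wild type to 5.12 ± 0.376 CPM in knockout libraries (log2 -5.79 ± 0.08, edgeR adjusted p = 2.87e-20). IVL, named after involucrin and typed as a pseudogene there, had a log2 fold change of -4.01 ± 0.13, and the row described as cornulin (ENSBTAG00000054069) one of -3.11 ± 0.38. CRCT1, a cysteine-rich gene of the same complex, rose from 10.9 ± 0.985 to 63.6 ± 3.64 CPM (2.54 ± 0.08). Trichohyalin, cornulin and CRCT1 were picked out after their values were seen. Of 15 squamous markers, 9 had a row and 5 were tested: IVL, TGM1 and KRT17 fell, DSG1 rose and KRT10 did not pass (0.15, edgeR adjusted p = 0.507). The summed level of that list was 105 to 111 CPM in knockout and 185 to 189 CPM in wild-type libraries, and KRT1 was at 0 throughout. Its part in the S100 values was not tested.

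**Figure D4:**
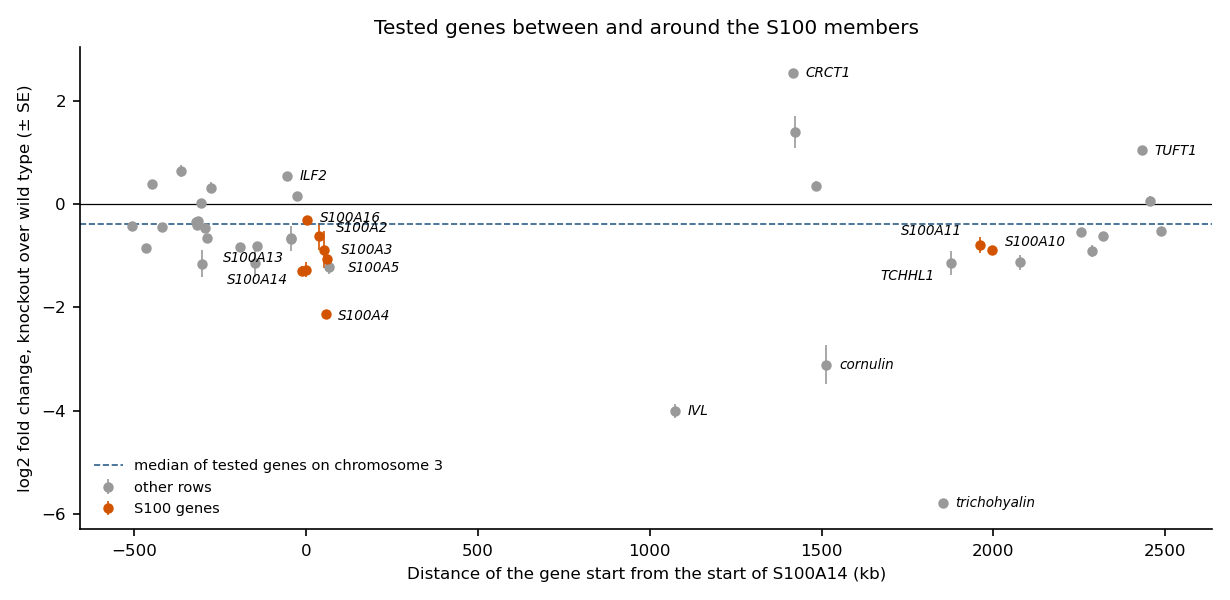
Log2 fold change (knockout against wild type, ± SE) of the 44 tested genes between and around the S100 members, against the distance of the gene start from that of S100A14 in kb. The 9 S100 genes (orange) lie between -2.12 and -0.31, while the genes between them run from -5.79 (trichohyalin) to 2.54 (CRCT1), and the dashed line is the chromosome 3 median of -0.39.

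Annexins bind phospholipid membranes when calcium rises, and several do so as complexes with S100 dimers. Of 10 tested genes among the annexins and AHNAK, 8 fell and 1 rose, with a median of -0.90. The shares over all genes tested were 37.6% and 37.1%. ANXA2, the partner of S100A10, fell from 3462 ± 82.9 to 1314 ± 29.7 CPM (log2 -1.40 ± 0.04, edgeR adjusted p = 1.27e-15), and ANXA1, the partner of S100A11, from 1610 ± 57.1 to 849 ± 35.6 CPM (-0.92 ± 0.04). AHNAK, a giant scaffold bound by the complex of S100A10 and annexin A2, fell by 0.92 ± 0.17 on the log2 scale. ANXA7 fell by 1.25 ± 0.06. ANXA9 went from 252 reads over the wild-type libraries to 0, which is 82.6-fold lower against 3 counts over the knockout group. ANXA5, the annexin used to stain dying cells, rose by 0.57 ± 0.04, and ANXA3 did not pass (-0.03, adjusted p = 0.517). ANXA7, ANXA8L1 and ANXA11 lie on chromosome 28, whose 180 tested genes had a median of -0.57.

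The balance within partner pairs was followed as the log2 ratio of counts in each library. S100A10 over ANXA2 was -0.57, -0.57 and -0.54 in knockout and -0.97, -1.0 and -1.26 in wild-type libraries. The groups did not overlap, and the ratio was 0.52 higher in knockout libraries, since ANXA2 had the larger fall (exact permutation p = 0.10, adjusted over 3 pairs 0.150). Without wild-type replicate 3 that difference was 0.424. S100A11 over ANXA1 was 1.06, 1.05 and 1.05 in knockout and 1.10, 0.99 and 0.63 in wild-type libraries, which overlap. That difference of 0.15 (exact permutation p = 0.400, adjusted 0.400) went to 0.00832 without wild-type replicate 3. S100A4 over MYH9, the myosin heavy chain, was -1.78, -1.84 and -1.88 in knockout and 0.93, 0.68 and 0.81 in wild-type libraries. Here the ratio was 2.64 lower in knockout (exact permutation p = 0.10, adjusted 0.150), with MYH9 itself higher by 0.51 ± 0.05. None of these tests can pass a threshold of 0.05 with 3 libraries per group.

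Other binding partners and proteins linked to S100 function, a list mostly of intracellular proteins, went both ways. Of 17 tested, 11 rose and 6 fell, with a median of 0.26, where 37.1% of all genes tested rose and 37.6% fell. PLAT, which encodes the tissue plasminogen activator, a secreted protease and so not a partner inside the cell, rose from 83.1 ± 0.157 to 323 ± 2.60 CPM, and DLC1, the phosphatase gene PPP5C and the chaperone gene FKBP5 rose by 1.35, 1.09 and 0.69 on the log2 scale. MYH14 fell by 1.20 ± 0.12 on the log2 scale, the scaffold gene IQGAP1 by 0.52 ± 0.04 and CAPZA1 by 0.36 ± 0.05. With the median of each chromosome taken out, 15 of the 17 kept their sign, and SUGT1 and CAPZA1 did not. CACYBP, named as the binding protein of S100A6, rose by 0.45 ± 0.06.

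Of 10 tested genes for receptors of released S100 proteins and their adaptors, 6 fell and 3 rose, with a median of -0.51. Among all genes tested, 37.6% fell and 37.1% rose. LY96, the co-receptor of TLR4, fell by 1.64 ± 0.10 on the log2 scale, on chromosome 14, where the median of the 301 tested genes was -0.82. AGER, which encodes RAGE, fell from 4.28 ± 0.413 to 2.06 ± 0.258 CPM and TLR4 from 13.9 ± 0.972 to 8.60 ± 0.393 CPM, and EGFR fell by 0.88 ± 0.09. MCAM, a receptor of S100A8 and S100A9, rose from 2.33 ± 0.687 to 10.9 ± 0.951 CPM, and BSG and NPTN, both S100A9 or S100A8 receptors of the immunoglobulin family, rose by 0.53 and 0.43.

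Among transcription factors known to act on S100 genes, 11 of 13 tested fell and none rose, with a median of -0.64. Over all genes tested, 37.6% fell and 37.1% rose. ELF3 fell from 84.2 ± 4.47 to 17.3 ± 1.58 CPM, FOS from 897 ± 63.7 to 231 ± 1.14 CPM and CEBPB from 39.7 ± 6.06 to 20.3 ± 2.05 CPM. TP63, which encodes p63, fell by 0.70 ± 0.06 on the log2 scale. NFKB1 (-0.09, edgeR adjusted p = 0.282) and TCF7L2 (-0.20, adjusted p = 0.138) did not pass. With the chromosome median taken out, 9 of the 11 kept their sign, and JUN and STAT3 did not.

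**Figure D5:**
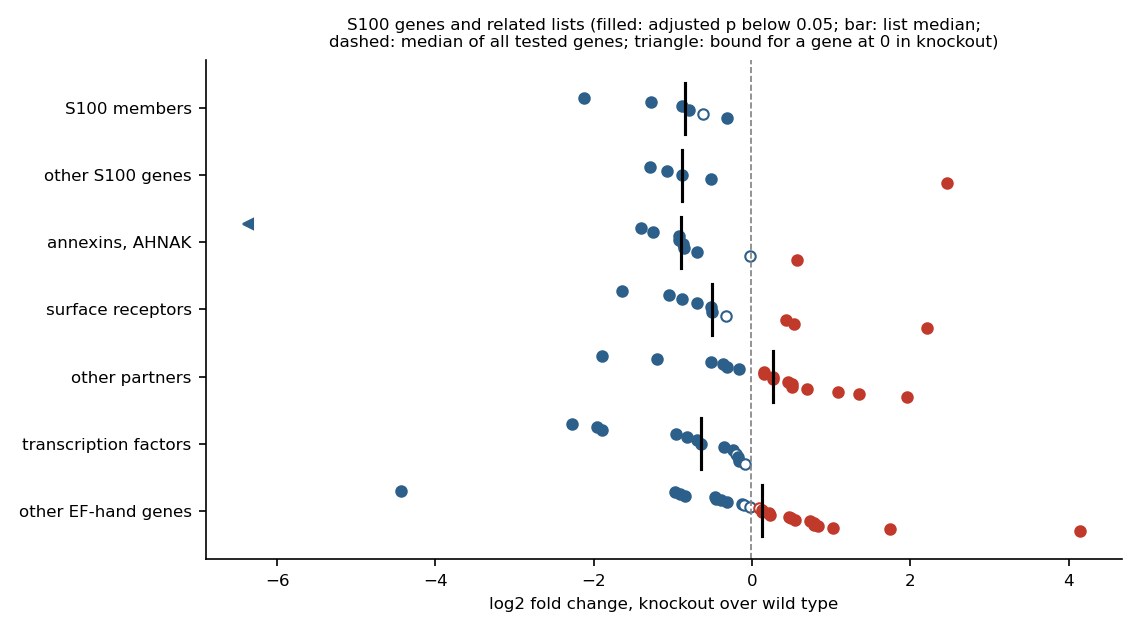
Log2 fold change (knockout against wild type) of the tested genes of 7 lists, with filled points for an adjusted p below 0.05, a bar at each list's median and a dashed line at the median of all tested genes (-0.01). The S100 members lie between -2.12 and -0.31, and S100B is the other S100 gene at 2.47. The triangle is ANXA9, which had 0 reads in knockout libraries and is set at -6.37, computed against 3 counts.

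Since S100A4 is often used as a fibroblast marker, the other fibroblast markers are given beside it. All 12 had reads, and of 9 tested, 4 fell and 3 rose, beside 37.6% and 37.1% of all genes tested. DCN fell from 1134 ± 106 to 229 ± 6.27 CPM, with PDGFRA (-1.50), COL3A1 (-1.53) and COL1A1 (-0.46) also lower. ZEB1 and SNAI1 rose by 2.72 and 2.62. COL1A2 went from 0 reads in wild type to 278 in knockout libraries, which is 94.3-fold higher against 3 counts over the wild-type group. VIM, read at 1.94 ± 0.593 CPM in wild type and 2.81 ± 0.432 CPM in knockout, did not pass (0.53, edgeR adjusted p = 0.0558). The summed level of the list was 267 to 279 CPM in knockout and 1059 to 1254 CPM in wild-type libraries. DCN made up most of that sum in both genotypes. The part of these markers in the fall of S100A4 was not tested.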

How the data were processed

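RNA-seq libraries of 3 KLF6 knockout and 3 wild-type cell samples were compared. The authors deposited raw counts per gene, with HISAT2 2.0.5 and featureCounts 1.5.0-p3 named, without roles, per the submitters' processing notes; no source used here gives the build, annotation or strand setting. They also deposited log2 fold changes and adjusted p-values of their own comparison for 9532 genes, with the test not stated per the file headers. The gene length (in bases) and coordinates are those of the count table.

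Genes were tested with edgeR 4.0.16 (R 4.3.3, limma 3.58.1; TMM, filterByExpr with minimum count 10 and minimum total 15, robust quasi-likelihood test, Benjamini-Hochberg adjustment over 13390 genes, threshold 0.05), without covariates. The SE of a fold change was taken as its absolute log2 value divided by the root of the F statistic. Single values per library were compared with exact two-sided permutation tests. The code was tested on simulated data. Alternatives were DESeq2 1.42.0, limma-voom, no TMM, other filters, a replicate block, each library left out and the chromosome median taken out.

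The members and the 12 gene lists were chosen with earlier results of these data known. Named were KLF6, all members, the other S100 genes, the partner pairs and, per list, up to 4 called genes per direction with the largest changes; some genes of the lists are counted but not reported here by name. CRCT1, trichohyalin, cornulin, TP63 and KRT14 were named after their values were seen. Depth was 17512892 to 18724879 counts per library.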

Additional observations from a re-analysis of the deposited data

How the results depend on the processing

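The number of called genes was 9991 overall and between 9497 and 10690 under the alternatives; S100 members called numbered 5, with 5 to 6 when a library was left out, 7 by DESeq2 and 6 with no filter on low counts. The numbers of calls in the other lists and in the region stayed within 1.5 times of those reported under every alternative run. With the chromosome 3 median taken out, S100A16 changed sign, to 0.08; the shift is that median by construction. S100A2 passed by DESeq2 and without wild-type replicate 3, and S100A3 failed in 6 alternatives, among them no filter on low counts (adjusted p = 0.05, just above the threshold). S100A4, S100A10, S100A11, S100A14 and S100A16 kept their direction and their call in every refit; the largest adjusted p was 0.0351, for S100A11 without wild-type replicate 2.

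The labels give same-numbered libraries of the 2 genotypes only a number in common. The correlations of their deviations were -0.04, 0.07 and -0.02, which cannot tell if such libraries were prepared together. With the replicate block, 9894 genes and 5 members were called, and S100A3 was not (adjusted p = 0.0558). The difference in the summed share of S100 counts was -0.461 percentage points, for which the exact sign-flip test of the pairing gave p = 0.250, the smallest it can reach. Left-out libraries moved that difference between -0.48 and -0.45. Using the sum of all rows of a symbol was not run, since no symbol of the lists was on more than 1 row. Pairs with S100A6 or S100A8 gave no value. Depth limits what can be said of S100A8, S100A9, S100A12, S100A1 and S100Z, each with 23 reads or fewer in all.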

Other observations

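Other EF-hand genes, which share the calcium-binding loop with the S100 family, went both ways. Of 26 tested, 13 rose and 9 fell, with a median of 0.13, beside 37.1% and 37.6% of all genes tested. SPARC, a secreted matrix protein with an EF-hand domain, rose from 153 ± 8.71 to 2721 ± 28.5 CPM. The reticulocalbin genes RCN3 and RCN2, for calcium-binding proteins of the secretory pathway, rose by 1.74 ± 0.08 and 1.02 ± 0.05 on the log2 scale, and the calpain gene CAPN2 by 0.83 ± 0.04. CALML5, a calmodulin-like gene of differentiating keratinocytes, had 3 reads in knockout and 74 in wild type (ratio 24.2, 95% counting interval 7.98 to 120). GCA fell by 0.97 ± 0.07, and MICU2, for a gatekeeper of mitochondrial calcium uptake, fell by 0.85.

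Endothelial markers summed to 32.3 to 33.8 CPM in knockout and 4.55 to 5.85 CPM in wild-type libraries. PECAM1, at 31.3 ± 0.886 CPM, made up most of the knockout sum, which hence does not describe the list as a whole. Of 4 tested, 2 rose and 2 fell, beside 37.1% and 37.6% of all genes tested. PECAM1 (7.11) and EMCN (3.49) rose, VWF (-3.85) and TEK (-2.31) fell, and KDR and CLDN5 were at 0 in all libraries. CDH5 had 1 read in knockout and 18 in wild type. Among the mammary epithelial markers, 6 of 9 fell, beside 37.6% of all genes tested, and KRT14 rose by 0.76 ± 0.05 on the log2 scale.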
